A study of Mus musculus with 6 samples.

Results

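The 10 genes described here belong to the Krüppel-like factor (KLF) family of transcription factors: Klf2, Klf3, Klf4, Klf5, Klf6, Klf7, Klf9, Klf10, Klf12 and Klf13. Each was read from the 1 probe set that the platform annotation assigns to that gene alone, and all 10 were measured among 19937 genes. The other 7 KLF genes and 8 genes of the related SP family were measured on the same arrays. Cells came from embryonic day E11.5 CD1 mice, from the region of aorta, gonads and mesonephros, where blood stem cells first arise and germ cells settle, and the labels give no treatment or mutation. Of the cells that carried CD31 and lacked CD45 and Ter119, 3 samples were c-kit-positive and 3 were c-kit-negative, with 1 array each. The labels describe the replicates as biological but are silent on pooling of embryos, and all p-values rest on the spread among the arrays only. Values are log2 values, and each difference is c-kit-positive minus c-kit-negative.

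KLF proteins bind CACCC and GC-rich DNA through zinc fingers at their C-terminal end, which are much alike across the family, and act through more variable N-terminal parts. One branch (KLF1, KLF2, KLF4, KLF5, KLF6 and KLF7) mainly activates transcription, another (KLF3, KLF8 and KLF12) represses by recruiting the corepressor CtBP, and the remaining main branch (KLF9, KLF10, KLF11, KLF13, KLF14 and KLF16) recruits Sin3A. In endothelium KLF2 and KLF4 are induced by blood flow, and in mouse embryonic stem cells Klf2, Klf4 and Klf5 hold the naive pluripotent state together.

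The sorted populations differed in markers of several cell types. Kit itself, the gene of the sorted antigen, averaged 9.55 ± 0.03 on the c-kit-positive arrays, against 8.22 ± 0.04 on the c-kit-negative arrays (SD, n = 3 each), the direction its label gives. Pecam1, which encodes the CD31 that both populations carried, averaged 9.13 ± 0.16 on c-kit-positive arrays, against 10.02 ± 0.02 on c-kit-negative arrays. It was lower in c-kit-positive cells (adjusted p = 0.00597, limma), and the values of the populations did not overlap. Ptprc, which encodes the CD45 that the sort selected against, averaged 8.52 ± 0.13 on c-kit-positive arrays, against 8.75 ± 0.60 on c-kit-negative arrays, and did not pass the test (adjusted p = 0.689, limma). In both populations Ptprc lay well above the array medians of 5.42 to 5.52. The mean of the 10 pan-leukocyte genes, Ptprc included, was 7.96 to 8.44 across the 6 arrays. The source of these transcripts in cells sorted as lacking CD45 was not tested. In c-kit-positive cells all 15 endothelial markers fell (median difference -2.31), 10 of 12 primordial germ cell markers rose (median 1.29), and 8 of 12 mesenchymal markers fell (median -1.54). Of the other markers 3 of 12 for macrophages, 3 of 7 for platelets and 2 of 7 for erythroid cells fell, and 2 of 10 pan-leukocyte genes rose (medians -0.81, -0.28, -0.06 and -0.23). Of 10 epithelial markers 0 passed limma's threshold and 2 had an unadjusted p under 0.05 (median 0.11). In such mixtures fewer cells of a type and less RNA per cell cannot be told apart.

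Of the 10 KLF genes, Klf12 fell 5.49-fold and Klf5 rose 2.20-fold in c-kit-positive cells, and the remaining 8 did not pass the threshold. Calls are those of limma across all genes at a Benjamini-Hochberg adjusted p under 0.05. The same rule called 2.71% of all genes higher and 4.70% lower, 7.41% in all, and 1 call in each direction among 10 genes describes those genes singly. The median difference was -0.13 over the 10 genes and 0.07 over all genes. The values of the populations did not overlap for 3 of the 10, Klf3, Klf5 and Klf12, where 26.8% of all genes were separated in this way. At an unadjusted p under 0.05 limma listed 4 of the 10, Klf6 in addition to these, and 21.0% of all genes. The plot of the 10 genes by array shows the separation of Klf5 and Klf12 against the overlap of most others.

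**Figure D1:**
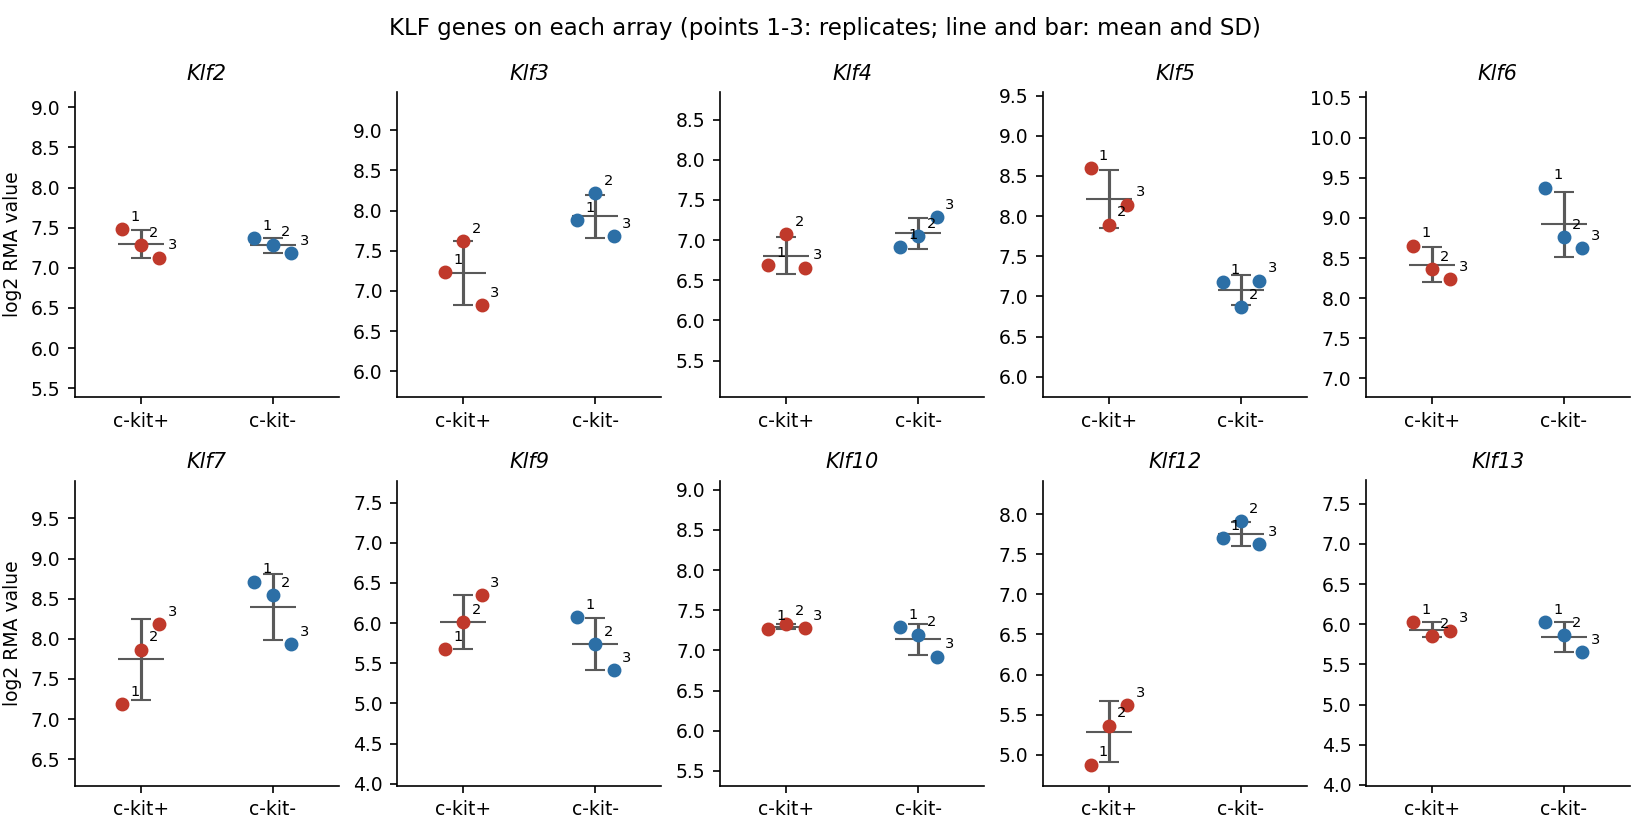
Log2 values of the 10 KLF genes on the 6 arrays, c-kit-positive left and c-kit-negative right, each panel spanning the same log2 range around its own midpoint. Points numbered 1 to 3 are replicates, and the line and bar are mean and SD. The c-kit-positive points lie below all c-kit-negative points for Klf12 and Klf3 and above them for Klf5.

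Among the repressors that recruit CtBP, Klf12 is known as a repressor of the AP-2alpha gene Tfap2a. Its probe set (10422013) had 4.88, 5.36 and 5.62 in c-kit-positive replicates 1, 2 and 3, against 7.70, 7.91 and 7.63 in c-kit-negative replicates 1, 2 and 3. All c-kit-positive values lay far below all c-kit-negative values, and the c-kit-positive arrays were the more spread (SD 0.38 against 0.15). The c-kit-positive values lay around the array medians of 5.42 to 5.52. At that level the size of the fall and the spread may be affected by low signal, which was not tested. The difference was -2.46 ± 0.20 (SE, adjusted p = 0.00024, limma), with a 95% interval from -2.92 to -1.99, and by size Klf12 stood at place 102 among 937 lower genes. It lay between -2.62 and -2.25 with any 1 array left out. On the same arrays the mean of the 15 endothelial markers lay at 5.79 to 6.09 for c-kit-positive cells, against 8.53 to 8.65 for c-kit-negative cells. That of the 12 mesenchymal markers lay at 5.17 to 5.28 for c-kit-positive cells, against 6.42 to 6.91 for c-kit-negative cells. Their part in the fall of Klf12 was not tested. Tfap2a, looked up after the fall of Klf12 was known, averaged 4.10 ± 0.05 on c-kit-positive arrays, against 4.20 ± 0.21 on c-kit-negative arrays (SD, n = 3 each, adjusted p = 0.768, limma). All its values, 4.05 to 4.44, lay below the array medians of 5.42 to 5.52. At so low a level a change of Tfap2a may not show, so its response to Klf12 cannot be read here. The relative Tfap2c, a factor of primordial germ cells, rose 2.18-fold (adjusted p = 0.0078, limma).

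Klf3, a broadly expressed CtBP-dependent repressor also known as BKLF, had 7.24, 7.62 and 6.82 in c-kit-positive replicates 1, 2 and 3, against 7.88, 8.22 and 7.68 in c-kit-negative replicates 1, 2 and 3. All c-kit-positive values were the lower, the closest pair being c-kit-positive replicate 2 and c-kit-negative replicate 3. The difference of -0.70 ± 0.23 (SE) did not pass (adjusted p = 0.115, limma), and its interval of -1.22 to -0.18 allows a fall of up to 2.33-fold.

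Klf8, the branch's remaining gene, went the other way to Klf12 and rose 2.13-fold. Its probe set (10602704) had 7.08, 6.52 and 6.85 in c-kit-positive replicates 1, 2 and 3, against 5.33, 6.09 and 5.75 in c-kit-negative replicates 1, 2 and 3. The populations did not overlap, although replicate 2 of each lay toward the other. The difference was 1.09 ± 0.23 (SE, adjusted p = 0.0237, limma). The call was lost when replicate 1 or replicate 3 of either population was left out, where the adjusted p lay between 0.066 and 0.0804 (limma) and the difference between 0.89 and 1.10. It was also lost without variance moderation (adjusted p = 0.171, limma's linear model), and 8 of 15 alternatives kept it. Neither CtBP gene passed: Ctbp1 averaged 7.38 ± 0.49 on c-kit-positive arrays, against 7.83 ± 0.40 on c-kit-negative arrays, and Ctbp2 averaged 7.18 ± 0.21 on c-kit-positive arrays, against 7.28 ± 0.27 on c-kit-negative arrays (SD, n = 3 each). Both were named after their values were seen.

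In mouse erythroid tissue KLF1 is known to activate, and KLF3 to repress, Klf8 through CACCC boxes, and KLF1 also activates Klf3. Klf1, named after its values were seen, was at 6.38, 7.28 and 7.19 in c-kit-positive replicates 1, 2 and 3, against 6.03, 6.53 and 6.08 in c-kit-negative replicates 1, 2 and 3. Its difference of 0.73 ± 0.26 (SE) did not pass (adjusted p = 0.139, limma), and c-kit-positive replicate 1 overlapped c-kit-negative replicate 2. The 250 bases before the start sites of Klf3, Klf8 and Klf12 are shown because this cross-regulation runs over such boxes. The letters CACCC, searched on both strands so that GGGTG is its other reading, are in capitals. The sequences are from RefSeq, build GRCm38.p6, read 5′ to 3′ on the strand of the gene.
Klf3, chr5:64803271-64803520, plus strand: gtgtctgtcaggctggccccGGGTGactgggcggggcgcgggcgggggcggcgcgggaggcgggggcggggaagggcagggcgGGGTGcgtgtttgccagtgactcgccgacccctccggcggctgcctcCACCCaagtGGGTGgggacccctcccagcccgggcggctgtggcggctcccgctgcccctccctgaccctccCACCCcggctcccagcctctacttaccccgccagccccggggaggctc
Klf8, chrX:153237498-153237747, plus strand: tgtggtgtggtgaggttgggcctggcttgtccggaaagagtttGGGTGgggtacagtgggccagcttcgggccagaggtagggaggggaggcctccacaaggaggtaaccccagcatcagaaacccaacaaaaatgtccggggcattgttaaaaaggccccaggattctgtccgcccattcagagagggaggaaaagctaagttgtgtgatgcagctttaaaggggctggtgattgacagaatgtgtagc
Klf8, chrX:153359363-153359612, plus strand: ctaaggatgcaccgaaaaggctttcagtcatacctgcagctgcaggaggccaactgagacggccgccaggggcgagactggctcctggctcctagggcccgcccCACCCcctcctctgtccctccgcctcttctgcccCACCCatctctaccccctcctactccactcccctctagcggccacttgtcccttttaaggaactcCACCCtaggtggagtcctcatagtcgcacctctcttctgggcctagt
Klf12, chr14:100149797-100150046, minus strand: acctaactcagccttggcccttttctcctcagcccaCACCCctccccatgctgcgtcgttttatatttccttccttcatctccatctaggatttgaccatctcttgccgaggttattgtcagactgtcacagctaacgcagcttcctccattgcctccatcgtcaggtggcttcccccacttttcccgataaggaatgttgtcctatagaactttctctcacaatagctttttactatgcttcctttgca
The Klf3 window held 5 matches, the Klf8 windows 1 and 3, and the Klf12 window 1. The start that the Klf12 window precedes lies inside the annotated gene. The letters occur in 52% of all 32851 windows of this length, and in 6 of the 8 windows of the 10 KLF genes. A match of so few letters describes the sequence and is not a binding site. RefSeq windows were found for 8 of the 10 genes, all but Klf5 and Klf10.

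Among the activators Klf5, which is active in gut epithelium and embryonic stem cells, had (probe set 10416777) 8.60, 7.89 and 8.14 in c-kit-positive replicates 1, 2 and 3, against 7.18, 6.86 and 7.20 in c-kit-negative replicates 1, 2 and 3. All c-kit-positive arrays lay above all c-kit-negative ones. The difference was 1.13 ± 0.20 (SE, adjusted p = 0.0122, limma), with an interval from 0.67 to 1.60, at place 138 among 540 higher genes. It passed with any 1 array left out, between 0.94 and 1.29, the adjusted p reaching 0.0448 without c-kit-negative replicate 2 (limma), and it did not pass without variance moderation (adjusted p = 0.13, limma's linear model). On the same arrays the mean of the 12 germ cell markers was 7.73 to 7.84 for c-kit-positive cells, against 6.43 to 6.55 for c-kit-negative cells, and its part in the rise of Klf5 was not tested. Klf5 and Klf12 are neighbours on chromosome 14: RefSeq lists 9 genes between them, 0 of them protein-coding and 0 measured here. The pair moved in opposite directions.

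Genes of the naive pluripotency circuit, in which Klf2, Klf4 and Klf5 act in embryonic stem cells, divided. Of 11 measured 4 rose, 1 fell and 6 did not pass (median difference 0.91). Prdm14, a factor of germ cell specification, rose 3.83-fold, Pou5f1, which encodes OCT4, 3.41-fold and the pluripotency factor Sox2 2.93-fold, whereas the T-box factor Tbx3 fell 2.25-fold. Pou5f1 also stands among the germ cell markers. Of the circuit's KLF genes only Klf5 passed, and whether it differed from Klf2 and Klf4 in response was not tested.

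Klf2, the flow-induced factor of endothelial quiescence, had 7.48, 7.28 and 7.13 in c-kit-positive replicates 1, 2 and 3, against 7.37, 7.29 and 7.18 in c-kit-negative replicates 1, 2 and 3. The values of the populations overlapped throughout, and the difference of 0.02 ± 0.15 (SE, adjusted p = 0.967, limma) has an interval from -0.32 to 0.35. A rise of more than 1.27-fold lies outside it. The median difference of the endothelial markers on these arrays was -2.31. Klf4, which shares many endothelial targets with Klf2, had 6.69, 7.07 and 6.66 in c-kit-positive replicates 1, 2 and 3, against 6.91, 7.05 and 7.29 in c-kit-negative replicates 1, 2 and 3. Replicate 2 of the c-kit-positive cells lay within the c-kit-negative range, and the difference of -0.28 ± 0.17 (SE, adjusted p = 0.408, limma) runs from -0.67 to 0.11. Without c-kit-negative replicate 3 it was -0.18.

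Flow reaches Klf2 and Klf4 through the kinases MEK5 and ERK5 and the MEF2 factors, and the HEG1 receptor with the CCM proteins holds this route back. Of 13 genes of the route 3 fell and 0 rose (median difference -0.20). Heg1 was 4.07-fold lower, at 7.06 ± 0.08 on c-kit-positive arrays, against 9.09 ± 0.26 on c-kit-negative arrays (SD, n = 3 each), and is also an endothelial gene. Mef2a fell 2.03-fold and Mef2c 1.59-fold. The window before the Klf2 start is shown because it holds a match, in capitals, to the letters CTANNNNTAG. These are a loose form of the MEF2 motif, searched with any base at N, and read the same on both strands.
Klf2, chr8:72318812-72319061, plus strand: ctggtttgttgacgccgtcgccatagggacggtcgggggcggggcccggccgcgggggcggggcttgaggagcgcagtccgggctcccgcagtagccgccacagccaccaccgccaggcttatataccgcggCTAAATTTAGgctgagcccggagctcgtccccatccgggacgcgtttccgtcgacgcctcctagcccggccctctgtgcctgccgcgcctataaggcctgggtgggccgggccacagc
The match begins 118 bases before the annotated start, and this loose form occurs in 3.2% of all windows and in 1 of the 8 windows of the 10 KLF genes. The share of a stricter MEF2 motif was not counted. No match of one motif overlapped a match of the other in the KLF windows.

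Of 10 endothelial genes that KLF2 or KLF4 are known to raise, 5 fell in c-kit-positive cells and 0 rose (median difference -0.79). The angiopoietin receptor gene Tek fell 10.9-fold, Cdh5, which encodes VE-cadherin, 25.7-fold, the connexin gene Gja4 3.99-fold and the sphingosine phosphate receptor gene S1pr1 3.21-fold. Of 4 genes measured among those that KLF2 or KLF4 are known to lower, 1 also fell, the endothelin gene Edn1, by 4.34-fold (median -0.51). Tek and Cdh5 are among the 15 endothelial markers as well. All genes past the threshold in both lists were lower. The part of KLF2, KLF4 or endothelial content in these differences was not tested.

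Klf6, needed in mice for yolk sac blood formation and vessels, had 8.65, 8.36 and 8.24 in c-kit-positive replicates 1, 2 and 3, against 9.38, 8.76 and 8.62 in c-kit-negative replicates 1, 2 and 3. The populations overlapped in that c-kit-positive replicate 1 lay just above c-kit-negative replicate 3. The difference was -0.50 ± 0.22 (SE, adjusted p = 0.235, limma). Without c-kit-negative replicate 1, the highest array, it was -0.27. That array also had the highest mean of the 12 macrophage markers, the range being 5.67 to 5.89 in c-kit-positive cells and 7.37, 6.40 and 6.22 in c-kit-negative replicates 1, 2 and 3. Macrophages carry CD45, which the sort selected against, and Ptprc, the CD45 gene, was also highest on that array, at 9.40, against 8.66 and 8.21 in c-kit-negative replicates 2 and 3. Among the c-kit-negative arrays, replicate 1 also had the highest pan-leukocyte mean and the lowest endothelial, mesenchymal, platelet, erythroid and epithelial means. The part of macrophages or of these other cell types in the difference was not tested.

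Klf7, best known in neurons, was the most variable of the 10 genes. It had 7.19, 7.87 and 8.18 in c-kit-positive replicates 1, 2 and 3, against 8.71, 8.55 and 7.93 in c-kit-negative replicates 1, 2 and 3. Like Klf6 it was highest on c-kit-negative replicate 1, the array with the highest macrophage marker mean. That array also had the lowest means of several other cell types among the c-kit-negative arrays, as given for Klf6. The part of macrophages or of these other cell types in the values of Klf7 was not tested. The pooled SD within populations was 0.46, against a median of 0.21 over all genes, and c-kit-positive replicate 3 lay above c-kit-negative replicate 3. The difference of -0.65 ± 0.29 (SE, adjusted p = 0.242, limma) has an interval from -1.31 to 0.0053, and without c-kit-positive replicate 1 it was -0.37. A fall of 2.48-fold therefore remains within the error of these arrays.

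In the Sin3A-binding branch all 6 genes had small positive differences, between 0.09 and 0.32, where the median over all genes was itself 0.07. Of the 6, 0 passed limma's threshold and 0 had an unadjusted p under 0.05. Klf10, induced by TGF-beta and also called TIEG1, had 7.27, 7.33 and 7.28 in c-kit-positive replicates 1, 2 and 3, against 7.29, 7.20 and 6.92 in c-kit-negative replicates 1, 2 and 3. The c-kit-positive arrays were close together and overlapped the c-kit-negative range (difference 0.16 ± 0.14, SE, adjusted p = 0.59, limma). Without c-kit-negative replicate 3, the lowest array, the difference was 0.05. Klf13, a regulator of lymphocyte genes, had 6.03, 5.86 and 5.92 in c-kit-positive replicates 1, 2 and 3, against 6.02, 5.86 and 5.65 in c-kit-negative replicates 1, 2 and 3. Its populations overlapped as well (difference 0.09 ± 0.15, SE, adjusted p = 0.786, limma). The intervals reached up to 0.49 for Klf10 and 0.42 for Klf13.

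Klf9, a target of glucocorticoid and thyroid hormone, had 5.67, 6.01 and 6.35 in c-kit-positive replicates 1, 2 and 3, against 6.07, 5.74 and 5.41 in c-kit-negative replicates 1, 2 and 3. The populations overlapped, with a difference of 0.27 ± 0.22 (SE, adjusted p = 0.552, limma) and an interval up to 0.78. It was 0.10 without c-kit-positive replicate 3 and 0.11 without c-kit-negative replicate 3, and 0.44 without replicate 1 of either population. Of 7 hormone receptors and hormone-induced genes 1 rose, Zbtb16, which encodes the factor PLZF, by 2.11-fold (median difference 0.11). Around Klf10, 2 of 9 TGF-beta ligands, receptors and SMADs fell and 0 rose (median -0.45), the ligand gene Tgfb2 by 3.29-fold and the receptor gene Tgfbr2 by 1.70-fold.

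Outside the 10 genes, Klf8 was the only one of 7 other KLF genes to pass, and all 7 had positive differences (median 0.32, against 0.07 over all genes). At an unadjusted p under 0.05 limma listed 3 of the 7, and 21.0% of all genes. For 4 of the 7 all c-kit-positive values were the higher, where 16.2% of all genes were separated in this direction. Klf17, named after its values were seen, is among both the 3 and the 4. It averaged 4.77 on c-kit-positive and 4.34 on c-kit-negative arrays, below the array medians of 5.42 to 5.52. Of 8 SP genes 0 passed limma's threshold and 0 had an unadjusted p under 0.05, with differences from -0.07 to 0.26. Several SP genes averaged below the array medians in both populations, where a change may not show. Over all 17 KLF genes 2 rose, 1 fell and 14 did not pass. KLF genes share similar zinc finger sequence and probe sequences were not used here, so cross-hybridisation between them was not tested.

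**Figure D2:**
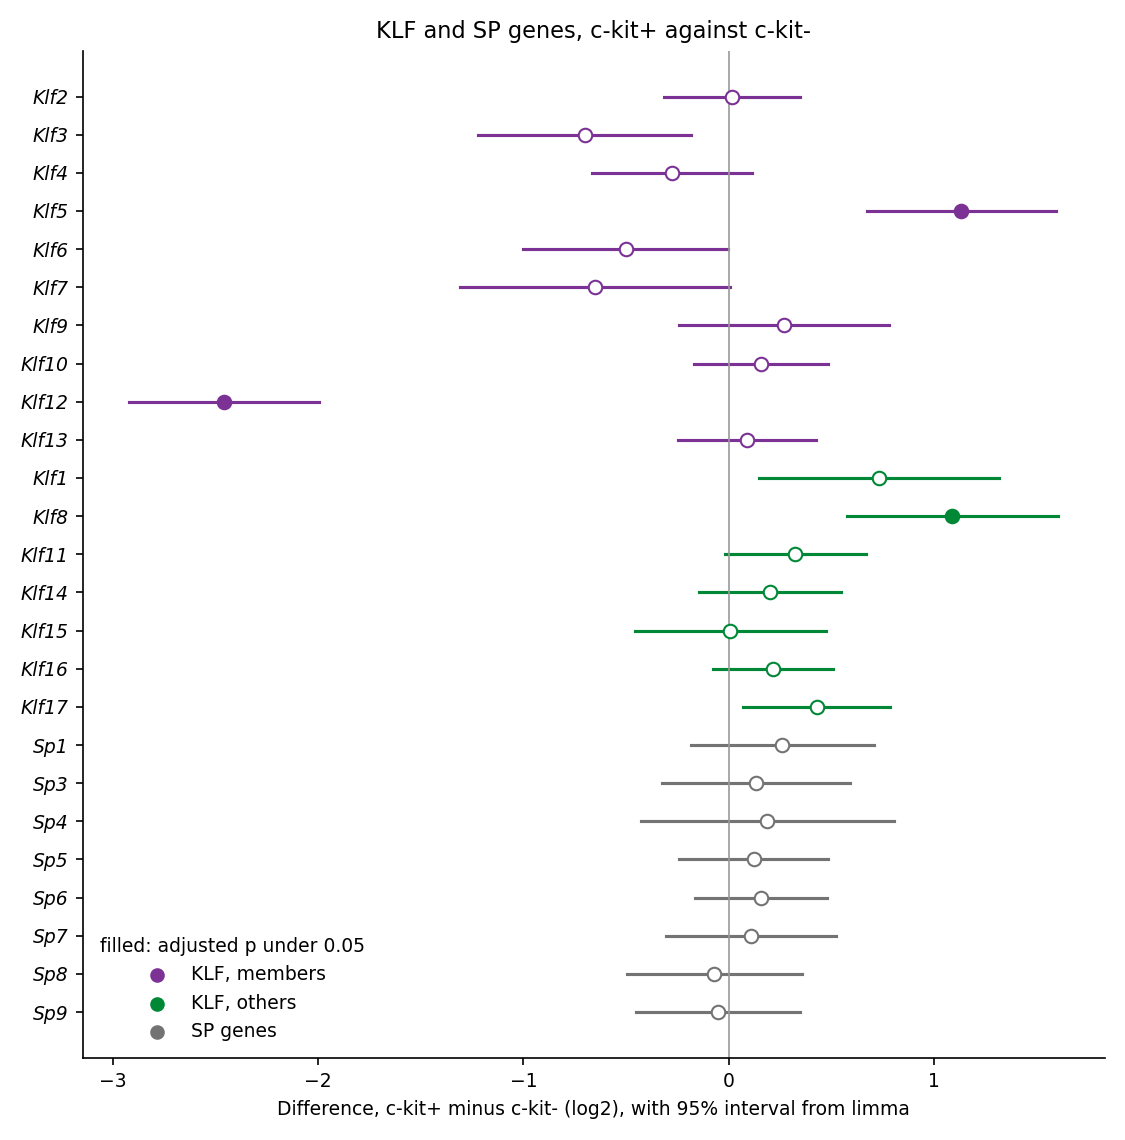
Differences (log2, c-kit-positive minus c-kit-negative) of the 10 KLF genes, 7 other KLF genes and 8 SP genes, with 95% intervals from limma and filled points where the adjusted p is under 0.05. Klf12 stands far below the rest at -2.46, Klf5 and Klf8 lie above 0 at 1.13 and 1.09, and the SP genes lie close to 0.

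Transcripts of genes whose proteins KLF factors need, or whose proteins remove KLF factors, were also read. Of 11 corepressors and coactivators, Sin3 and CtBP genes included, 0 passed limma's threshold and 4 had an unadjusted p under 0.05 (median difference 0.03, range -0.71 to 0.51). Of 5 ubiquitin ligases linked to KLF proteins Smurf1 fell 1.76-fold (median 0.16). Of 7 erythroid targets of KLF1 3 fell, the embryonic globins Hbb-y (15.7-fold), Hba-x (14.2-fold) and Hbb-bh1 (5.49-fold), with a median of -0.08, and Hbb-y and Hbb-bh1 are also erythroid markers.

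Several KLF genes are immediate early genes, which tissue digestion and sorting can induce. Of 16 measured immediate early and heat shock genes 1 rose and 1 fell (median difference 0.04). The orphan receptor gene Nr4a1 was 1.70-fold higher (adjusted p = 0.0491, limma) and the stress factor gene Atf3 3.28-fold lower. The plot of gene lists sets these groups beside the cell type markers.

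**Figure D3:**
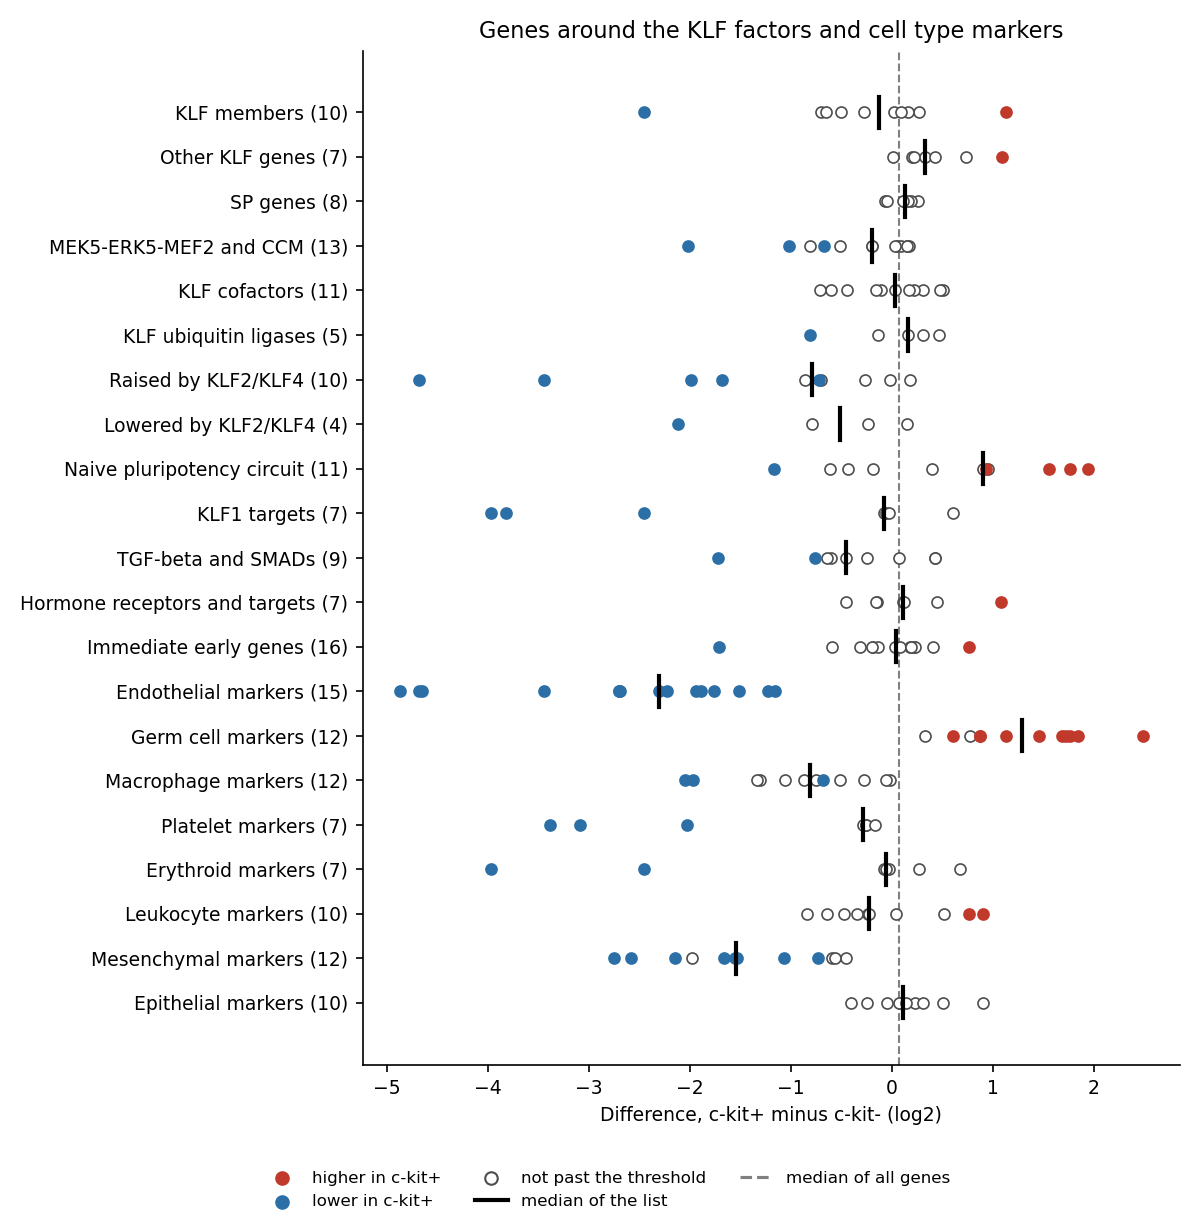
Differences (log2, c-kit-positive minus c-kit-negative) of single genes in each list, the number measured in brackets, with red for genes higher, blue for genes lower and open points for genes not past the threshold. Endothelial markers centre on -2.31 and germ cell markers on 1.29, against medians of -0.13 for the 10 KLF genes, 0.32 for the other KLF genes and 0.04 for immediate early genes, lists in which single genes (Klf12, Klf5, Klf8 and Atf3) lie far from the median.

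The plot by setting shows how far each KLF difference depended on the handling of the arrays, and only those of Klf2 and Klf13, both near 0, changed sign.

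**Figure D4:**
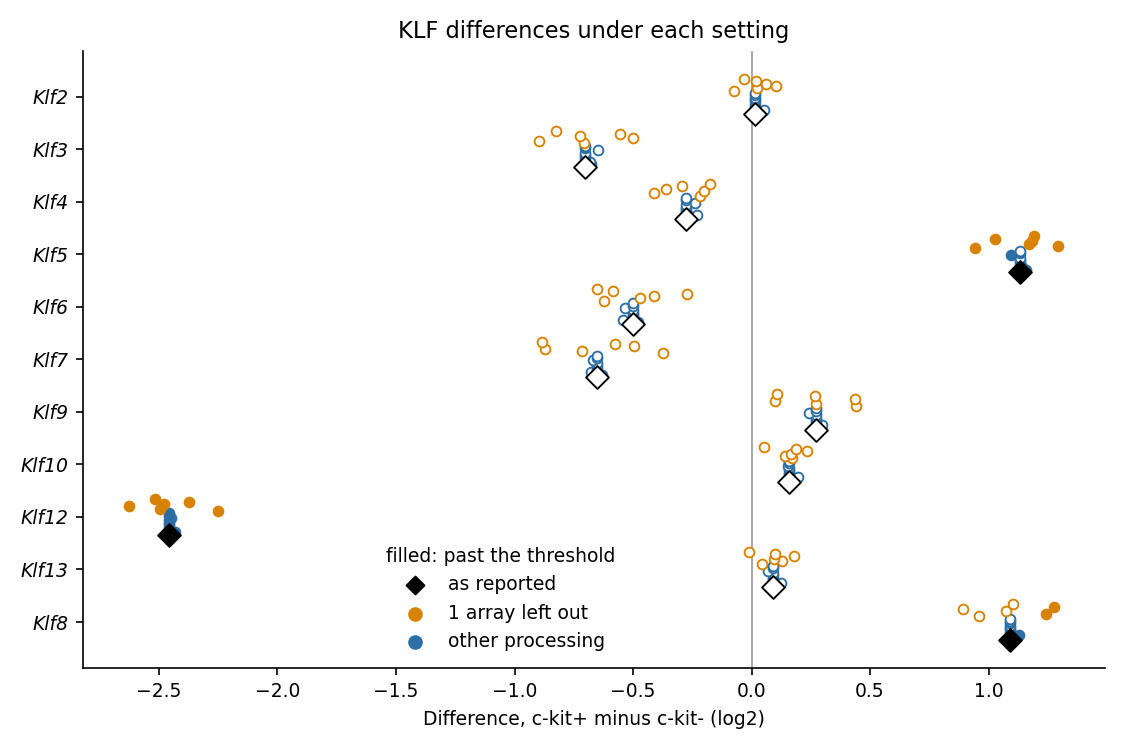
Differences (log2, c-kit-positive minus c-kit-negative) of the 10 KLF genes and Klf8 as reported (diamonds), with 1 array left out (orange) and under other processing (blue), filled where past the threshold. Klf12 stayed filled throughout, between -2.62 and -2.25, and leaving out arrays moved the differences more than the other settings did.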

How the data were processed

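The authors deposited log2 values made with RMA, per the submitters' processing notes (version not given in the sources used here). RMA equalises the arrays, so changes in total RNA per cell are not seen. Per the labels' protocols RNA was amplified before labelling, which can distort ratios. The table held 34760 probe sets, of which 21640 had 1 gene symbol in the platform annotation, 1321 several and 11799 none listed. Of the 21640, 21553 matched RefSeq by Entrez identifier. They gave 19937 genes, and for the 954 genes with several probe sets that of highest mean was used. Each of the 10 KLF genes had 1.

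The 3 c-kit-positive arrays were compared with the 3 c-kit-negative arrays by limma 3.58.1 (R 4.3.3), two-sided, using lmFit and eBayes without a filter or a block. P-values were adjusted over all 19937 genes by Benjamini-Hochberg, and 0.05 was the threshold. An exact permutation test of 3 against 3 cannot go below p = 0.1 and was not run. The test was tried on simulated data with noise drawn separately for each gene and array. Such data lack the variation that genes share on real arrays, so the trial lends no support to single calls. The members and lists were chosen with earlier results of these data known. All 10 KLF genes are named, of the other KLF and SP genes those past the threshold, and of each list up to 4 genes past it with the smallest p. Branches of the family follow textbook knowledge. Array values ran from 1.22 to 13.7, and array medians from 5.42 to 5.52. Precision is limited by the number of arrays. Correlations across genes were 0.976 to 0.981 within and 0.946 to 0.953 between populations, and 0 pairs of arrays were identical. Alternatives were other scalings, filters, probe set rules, variance models, array weights, a replicate block, a stricter threshold and leaving out each array. Figures were drawn with matplotlib 3.10.9.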

Additional observations from a re-analysis of the deposited data

How the results depend on the processing

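Klf12 was lower and past the threshold under all 15 alternatives, between -2.62 and -2.25, with a highest adjusted p of 0.0425 (limma's linear model without variance moderation). Klf5 kept its direction under all 15 and its call under 13. Without variance moderation 66 genes were higher and 216 lower, 0 of the 10 KLF genes were higher, and 0 of the other KLF and SP genes passed. At an adjusted p under 0.01 the counts were 131 higher, 499 lower, 0 KLF genes higher and 0 other KLF or SP genes, so Klf5 (adjusted p = 0.0122, limma) and Klf8 (adjusted p = 0.0237, limma) were lost there by the threshold itself. With 1 array left out, whichever it was, 276 to 369 genes were higher and 670 to 745 lower, 1 of the 10 KLF genes was higher and 1 lower each time, and 0 to 1 of the other KLF and SP genes passed. The differences of Klf2 and Klf13, neither of which passed, ran from -0.08 to 0.10 and from -0.0091 to 0.18. They changed sign without c-kit-positive replicate 1 (Klf2, -0.076) or c-kit-negative replicate 3 (Klf2, -0.033, and Klf13, -0.0091). Same-numbered arrays did not deviate together (correlations across genes of 0.00071, 0.024 and 0.059 for replicates 1, 2 and 3), and 2 of 3 c-kit-positive arrays correlated best with their own number. With the replicate number as a block 476 genes were higher and 879 lower, 2 KLF genes were lower, Klf3 (adjusted p = 0.0411, limma) joining Klf12, and 0 of the other KLF and SP genes passed (Klf8, adjusted p = 0.0528, limma). The shift of the median of all genes was at most 0.03 in size under the scalings tried. The cause of these changes was not tested except where named. The plot of the 10 KLF genes and Klf8 under each setting shows the spread.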
